A study of Arabidopsis thaliana with 4 samples.

Results

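The comparison set 1 ddm1 rdr2 library against 1 wild-type (WT) library, 2 of the 4 libraries of the series. Members were the cytosines of chromosomes 1 to 5 with at least 4 calls in both libraries, 26145239 of 47652272 nuclear cytosines listed (54.9%). Both genotypes were Arabidopsis thaliana of the accession Columbia (Col-0), and DNA came from leaves of plants 6 weeks old that had grown on soil at 22 °C with 16 h of light and 8 h of dark. The ddm1 rdr2 plants were labelled as mutant in both genes, and neither the alleles nor the number of plants pooled is given. The other libraries were ccr4a ccr4b and the quadruple mutant ccr4a ccr4b ddm1 rdr2, from the same tissue and age. They are quoted where they show the same positions in further plants.

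The assay was enzymatic methyl-seq, in which enzymes protect methylated cytosines while unmethylated ones are converted and read as T. Each library started from 100 ng of DNA and was amplified with 13 PCR cycles. The value of a region was its methylation level, the methylated share of all calls at its cytosines. A retained share is the ddm1 rdr2 level as a percentage of the WT level.

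Plant DNA methylation is copied in different ways by sequence context. MET1 maintains CG methylation, CMT3 maintains CHG methylation (H is A, C or T) beside the histone mark H3K9me2, and CMT2 and DRM2 place CHH methylation. DDM1 is a chromatin remodeller that opens heterochromatin to these enzymes, and RDR2 makes the double-stranded RNA from which the small RNAs that guide DRM2 are made. Many transcribed genes carry methylation in CG alone, while transposons and other repeats are usually methylated in CG, CHG and CHH.

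Nuclear calls amounted to 774313581 in WT and 745511802 in ddm1 rdr2, with a median of 14 calls per covered cytosine in each. Chloroplast DNA, which serves as the unmethylated control, read between 0.0782% and 0.110% methylated over both libraries and the 3 contexts. The satellite arrays of the centromeres were read thinly, with 17.8% of their cytosines past the minimum in both libraries, against 57.2% in the arms and 64.1% in the pericentromere. With 1 library per genotype no result has a replicate check, and tests on calls compare these libraries, not the genotypes. Intervals and limits cover counting error only, since amplified reads were counted with no molecular identifiers and 1 molecule can give several calls. The mutated genes themselves are not analysed here, since methylation calls hold no check of a mutation.

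The 100 bp stretches printed here show each outcome of the comparison: a lower, a higher and a kept bin in CG, CHG and CHH. Each comes from the region with the most bins of its kind, and is the bin with the largest difference there or, for kept, the highest ddm1 rdr2 level. The letters were read from the trinucleotide column of the deposited files, on the + strand and the build of those files, and n marks an A or T that the trinucleotides do not settle. Capitals mark the cytosines of the context named, and a capital G lies opposite such a cytosine on the - strand.
CG lower, chr3:17292401-17292500: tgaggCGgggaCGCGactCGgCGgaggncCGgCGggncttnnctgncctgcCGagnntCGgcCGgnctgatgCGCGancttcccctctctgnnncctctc
CG higher, chr5:23314601-23314700: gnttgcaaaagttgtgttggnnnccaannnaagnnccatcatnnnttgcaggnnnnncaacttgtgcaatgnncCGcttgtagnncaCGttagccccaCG
CG kept, chr3:25525101-25525200: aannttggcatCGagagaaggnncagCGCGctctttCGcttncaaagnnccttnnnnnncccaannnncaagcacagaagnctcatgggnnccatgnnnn
CHG lower, chr4:3931301-3931400: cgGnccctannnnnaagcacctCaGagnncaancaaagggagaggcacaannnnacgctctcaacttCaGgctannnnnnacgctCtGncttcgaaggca
CHG higher, chr5:5201101-5201200: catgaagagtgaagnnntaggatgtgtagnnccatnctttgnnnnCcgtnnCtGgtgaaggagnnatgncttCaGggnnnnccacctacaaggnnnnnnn
CHG kept, chr3:1561201-1561300: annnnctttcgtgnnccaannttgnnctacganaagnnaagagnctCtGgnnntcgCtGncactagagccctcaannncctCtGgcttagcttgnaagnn
CHH lower, chr4:8055701-8055800: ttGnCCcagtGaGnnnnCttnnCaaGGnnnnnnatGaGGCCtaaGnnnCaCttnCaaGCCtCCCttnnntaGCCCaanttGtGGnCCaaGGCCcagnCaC
CHH higher, chr3:4293701-4293800: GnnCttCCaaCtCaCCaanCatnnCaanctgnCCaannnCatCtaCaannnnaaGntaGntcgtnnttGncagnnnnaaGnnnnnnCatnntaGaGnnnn
CHH kept, chr3:10489401-10489500: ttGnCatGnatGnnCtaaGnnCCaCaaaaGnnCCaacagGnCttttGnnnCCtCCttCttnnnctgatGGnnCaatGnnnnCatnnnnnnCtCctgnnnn

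The CG stretch on chromosome 3 marked lower was dense in CG sites and went from 88.2% of 2216 calls in WT to 1.06% of 2074 calls in ddm1 rdr2. The kept CG stretch, also on chromosome 3 but 9.79 Mb from the centromere array, held 89.3% of 290 calls in WT and 94.9% of 334 calls in ddm1 rdr2. The higher CG stretch on chromosome 5 had 0 methylated calls of 84 in WT, which allows a level of up to 3.57%, and 75.9% of 87 calls in ddm1 rdr2. These single bins were chosen for their outcome and are examples, with no test.

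The double mutant had lost most methylation in each of the 3 contexts, and the share that remained differed by context and by place. The nuclear CG level of WT, 36.6%, stood against 11.3% for ddm1 rdr2, which makes -25.3 percentage points (Newcombe 95% interval -25.4 to -25.3). CHG methylation was 14.8% and 2.64%, a difference of -12.2 points (interval -12.2 to -12.1). CHH methylation was 4.98% and 1.19%, a difference of -3.79 points. The retained shares were thus 30.8% in CG, 17.9% in CHG and 23.9% in CHH, and all 5 chromosomes were lower in each context. As the mean of single cytosines, which gives deep and shallow positions the same weight, the shares were 40.8%, 26.8% and 40.5%, so that CG and CHH lay together. Leaving out highly covered positions, those at more than 3 times median depth, made the gaps -15.8 points in CG, -6.60 in CHG and -2.24 in CHH.

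CG retention was far higher in the arms than around the centromeres, whereas CHH retention over pooled calls was close in both. The pericentromere, taken as the sequence within 2 Mb of a satellite array, kept 14.5% of its CG level (72.5% in WT, 10.5% in ddm1 rdr2). The arms kept 50.1% (23.1% and 11.6%). The ddm1 rdr2 library therefore read nearly the same CG level in arms and pericentromere, although WT differed widely between them. In CHG the pericentromere kept 17.2% (36.9% and 6.34%) and the arms 23.7% (6.42% and 1.52%). In CHH the shares were 23.6% (11.1% and 2.62%) and 24.2% (2.29% and 0.554%). As means of single cytosines the arms kept 38.1% in CHG and 36.2% in CHH, and the pericentromere 21.7% and 30.3%. Without highly covered cytosines the CHH share was larger in the pericentromere than in the arms.

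Within the arrays CHH parted from CG and CHG. A 10 kb window counted as satellite array when 50% or more of its cytosines came back, with the same trinucleotide, 178 bp further on, and 997 of the 1165 windows in the array spans met this. Their CG level was 71.9% in WT and 3.71% in ddm1 rdr2, a retained share of 5.17%, and their CHG level 31.6% and 5.31%. Satellite CHH was not lower: at 7.99% in WT and 10.1% in the mutant, the difference was 2.14 points (interval 2.10 to 2.17). By chromosome the CHH difference was 0.607 points on chromosome 1, 3.86 on chromosome 2, 2.61 on chromosome 3 and 1.31 on chromosome 5. On chromosome 4 it was -0.0637 points, and the interval from -0.165 to 0.0376 held 0. The direction did not hold under one pair of changes made together. Counting recurrence whatever the trinucleotide gave 1.47 points, and so did asking for at least 4 calls in all 4 libraries, but with both the difference was -0.0666 points.

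The CHH difference varied with how regular the repeats of a window were. In windows where under 20% of the cytosines recurred in this way, CHH was 13.0% in WT and 4.74% in ddm1 rdr2. At 20% to 40% recurrence it was 13.0% and 6.69%, and at 40% to 50% it was 10.3% and 8.28%. The order then turned: at 50% to 60% recurrence it was 8.87% in WT and 10.1% in ddm1 rdr2, and at 60% to 70% it was 7.78% and 10.3%. In the windows with at least 80% recurrence it was 7.18% and 8.68%. The CG level in ddm1 rdr2 moved the other way over the same classes, from 7.45% in the least regular windows to 3.33% in the most regular. The share of CHH cytosines read in both libraries also fell along this order, from 51.5% to 12.1%, and its part in the pattern was not tested.

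Among CHG sites, CCG stood apart from CAG and CTG. Nuclear CAG was at 16.3% in WT and retained 19.2%, CTG was at 16.5% and retained 19.0%, while CCG was at 10.4% and retained 12.6%. The gap held in the pericentromere, where CAG went from 40.2% to 7.50%, CTG from 40.8% to 7.57% and CCG from 25.5% to 2.82%. It was also present in the satellite arrays, where CAG went from 41.0% to 11.9%, CTG from 41.0% to 12.3% and CCG from 26.5% to 1.79%. CCG was the lowest of the 3 in both libraries and in each of these regions. In this trinucleotide the outer cytosine lies directly before a CG site.

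The 4 CG trinucleotides were close to one another. Nuclear CGA retained 30.5%, CGC 31.6%, CGG 32.6% and CGT 28.4%. CHH methylation in WT was concentrated in CAA (12.5%) and CTA (13.0%), the trinucleotides known as the preferred sites of CMT2, and these retained 23.0% and 23.4%. CTC followed at 4.14% in WT with 21.7% retained, and the least methylated, CCC and CCT, stood at 0.858% and 0.809% with 35.3% and 32.7% retained. CAA and CTA had the highest levels in both libraries, in the arms as in the pericentromere.

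In the satellite arrays 7 of the 9 CHH trinucleotides were higher in ddm1 rdr2 than in WT. CAA was at 21.1% in WT with a retained share of 112%, CTA at 16.3% with 135% and CTC at 7.17% with 146%. CAC, at 3.97% in WT, read 169% of that level in ddm1 rdr2. CCC and CCT went the other way, from 1.26% with 33.7% retained and from 1.09% with 40.2% retained, and were lower on all 5 chromosomes. The higher satellite CHH level thus did not extend to these 2 trinucleotides.

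**Figure D1:**
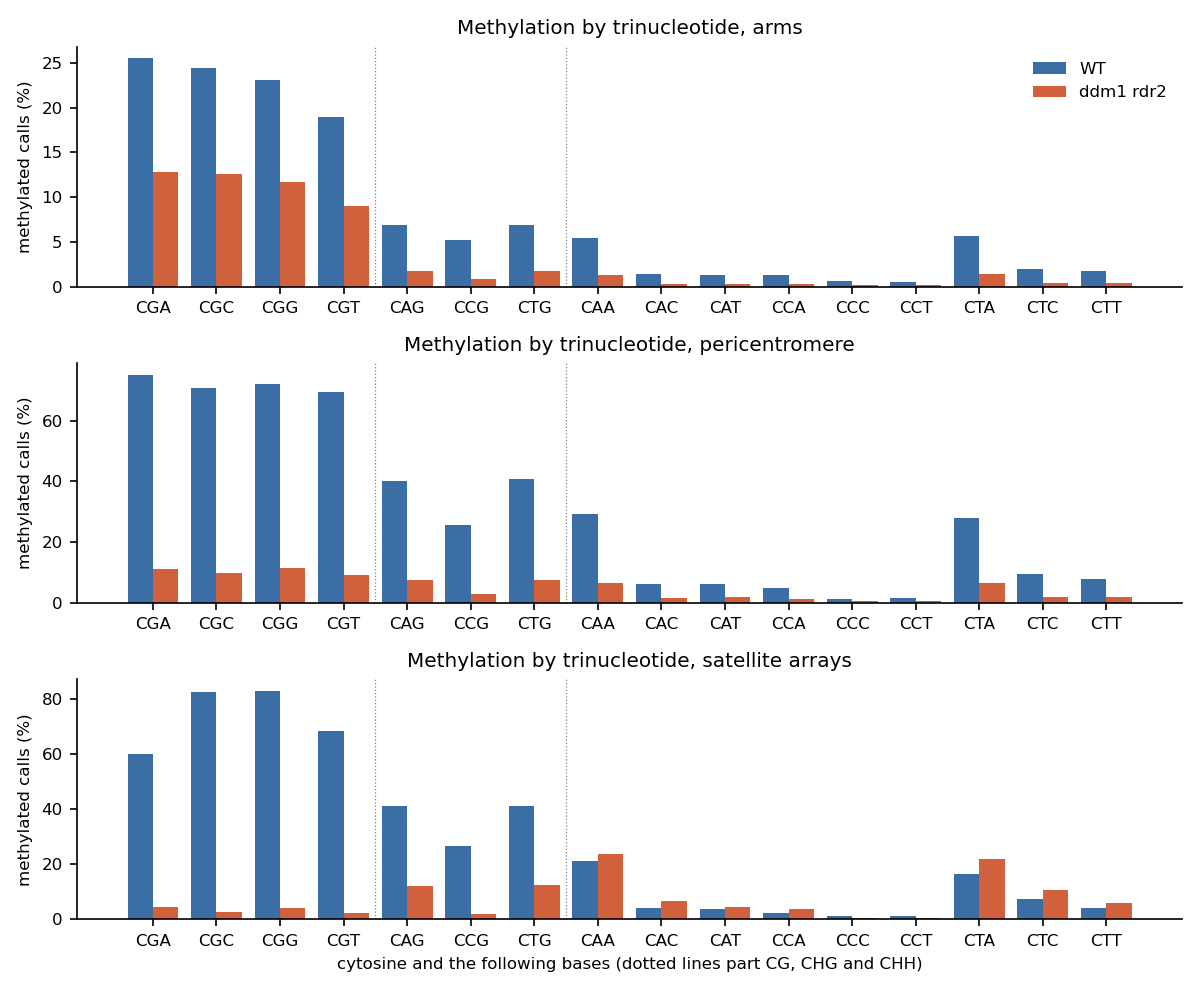
Methylated share of calls (%) by trinucleotide in WT (blue) and ddm1 rdr2 (orange), in arms, pericentromere and satellite arrays, pooled over cytosines with at least 4 calls in both libraries. In the satellite panel CAA and CTA stand higher in ddm1 rdr2, while every CG and CHG bar is lower.

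The share of CG methylation lost was smaller in the classes far from the array. The WT level stood at 79.3% between 0.5 and 1 Mb from the array, 55.0% between 2 and 3 Mb and 13.7% beyond 8 Mb. The ddm1 rdr2 level over the same classes was 11.2%, 15.7% and 10.8%, a far narrower range. The retained share was 11.5% within 0.25 Mb, 14.1% at 0.5 to 1 Mb, 17.6% at 1 to 2 Mb and 28.5% at 2 to 3 Mb. It reached 63.5% at 5 to 8 Mb and 79.0% beyond 8 Mb. CG was lower in ddm1 rdr2 in each of the 10 arms in every class up to 5 Mb, and in the 8 arms that reach further.

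CHG retention was higher beyond 5 Mb than nearer the array, and CHH retention beyond 8 Mb. CHG retention lay between 13.0% and 20.9% in the classes up to 5 Mb, then was 28.3% at 5 to 8 Mb and 44.9% beyond 8 Mb, where the WT level was 1.67%. CHH retention lay between 17.4% and 29.1% up to 5 Mb and was 39.2% beyond 8 Mb, where WT stood at 0.710% and ddm1 rdr2 at 0.278%. Chloroplast CHH read 0.0782% in WT and 0.0844% in ddm1 rdr2. No level was corrected for such unconverted calls, which weigh more in a low level, and their part in this retention was not tested. The far class also varied most between arms, from 23.2% to 84.0% in CHG and from 17.8% to 82.4% in CHH. CG retention there ranged from 63.3% to 85.1%.

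Stretches of unusual depth lay in 3 of the distance classes. The left arm of chromosome 2 had 151 WT calls per CG cytosine within 0.25 Mb and 214 between 0.25 and 0.5 Mb, against medians of 47.7 and 55.4 over the arms, and its WT CG level there was only 19.9% and 21.0%. Between 3 and 5 Mb the left arms of chromosomes 2 and 4 had 105 and 136 calls against a median of 28.7. Without these stretches the CG level within 0.25 Mb was 79.7% in WT with 13.1% retained. At 3 to 5 Mb retention was 32.2% with them and 50.1% without.

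**Figure D2:**
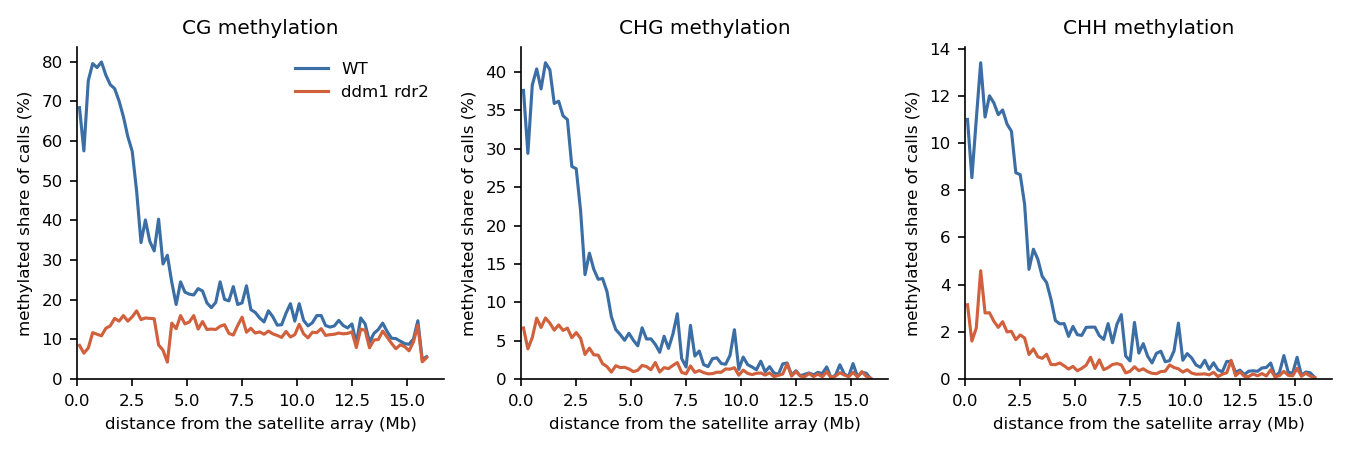
Methylated share of calls (%) against distance from the satellite array (Mb), in steps of 0.2 Mb pooled over the 10 arms, for WT (blue) and ddm1 rdr2 (orange) in CG, CHG and CHH. The WT lines fall away from the array, while the CG line of ddm1 rdr2 stays low and the lines nearly meet at the chromosome ends.

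Bins of 100 bp were then compared one by one by Fisher's exact test (two-sided) on their calls and Benjamini-Hochberg adjustment. To count as lower or higher, a bin had to reach an adjusted p below 0.01 as well as a gap between the libraries of 40 points in CG, 20 in CHG or 10 in CHH, or more. In CG, 108671 of 441582 bins were lower (24.6%) and 3070 were higher (0.695%). In CHG, 79781 of 489593 bins were lower (16.3%) and 867 were higher (0.177%). In CHH, 66543 of 752818 bins were lower (8.84%) and 5419 were higher (0.720%). Loss thus far outnumbered gain in every context, and the excess was smallest in CHH. The ccr4a ccr4b library, which carries neither ddm1 nor rdr2, was also below WT by the minimum gap in some lower bins. These were 2.37% of the lower CG, 4.84% of the lower CHG and 17.6% of the lower CHH bins it covered. Lower bins were picked for a WT level above that of ddm1 rdr2, and the part of this choice was not tested. Without highly covered cytosines the lower bins fell to 60710 in CG, 36606 in CHG and 43186 in CHH, and over all alternatives lower CHH bins numbered 36470 to 107529. The higher bins numbered 1297 to 9620 in CG, 534 to 1553 in CHG and 1975 to 8749 in CHH, with the fewest CHH bins when at least 10 calls were required.

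A bin with at least 40% CG, 20% CHG or 10% CHH in WT was counted as kept when ddm1 rdr2 had at least 80% of the WT level, a description with no test. In CG 42405 of 176441 eligible bins were kept (24.0%). The kept share was 5.18% in CHG, 5005 of 96596, and 11.8% in CHH, 13609 of 115776. With at least 10 calls there were 3274 kept CHG and 7364 kept CHH bins. The kept CG bins lay mainly in the arms: 42.9% of eligible arm bins were kept, against 2.92% in the pericentromere and 0 of 6741 in the satellite arrays. Kept CHH bins were distributed the other way, with 8.22% of eligible bins in the arms, 9.35% in the pericentromere and 37.0% in the satellite arrays.

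Kept CG bins made up 0.735% of eligible bins within 0.25 Mb of the array, 5.46% at 1 to 2 Mb, 37.2% at 3 to 5 Mb and 55.2% beyond 8 Mb. In CHG the share was 4.43% within 0.25 Mb and 10.7% at 5 to 8 Mb, and 790 of 3949 eligible bins were kept beyond 8 Mb. In CHH it was 17.2% within 0.25 Mb, 6.16% at 1 to 2 Mb and 12.3% beyond 8 Mb. Among these classes the CHH share was thus highest next to the array, and beyond 8 Mb it was near the share over all eligible bins.

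The bins were also called on each strand separately. Of bins lower in CG on + strand cytosines, 92.3% were also called lower on - strand cytosines, where 24.0% of all bins were. For CHG and CHH the shares were 85.9% and 53.8%, against 14.8% and 8.56% of all bins. For bins higher on the + strand, the share also called on the - strand was 62.9% in CG, 52.9% in CHG and 19.6% in CHH, against 0.748%, 0.158% and 0.516% of all bins. Among these CHH bins 63.6% had the same sign on the - strand, so higher CHH calls were the least alike between strands. Comparing the strands of WT with each other called 0.240% of CG bins, 0.813% of CHG bins and 3.71% of CHH bins.

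The share that bins kept, here their mean ddm1 rdr2 level over their mean WT level, differed with the starting level in WT, in no single direction. In the arms, bins with 40% to 50% CG in WT kept 84.6% on average, those with 60% to 70% kept 75.7%, those with 80% to 90% kept 54.2% and those above 90% kept 63.3%. In the pericentromere the same classes kept 54.3%, 21.7%, 16.6% and 24.5%, and bins with 10% to 20% in WT kept 33.7%. Arm bins of the 80% to 90% class were spread widely in ddm1 rdr2, with quartiles of 15.1% and 75.3% about a median of 48.3%. Of these bins 18.1% were under 10% and 33.8% were kept. Pericentromeric bins of the same class had a median of 9.37% with quartiles of 3.54% and 19.0%.

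In CHG the share of means was lowest in the middle classes, but pooled calls did not show this. Arm bins with 5% to 10% CHG in WT kept 47.1%, those with 30% to 40% kept 26.3% and those above 60% kept 40.9%, and in the pericentromere the shares were 28.4%, 18.4% and 27.4%. Pooled calls of these arm classes went from 7.27% to 1.09%, from 34.9% to 6.51% and from 68.3% to 27.8%. In the pericentromere they went from 7.17% to 0.583%, from 35.3% to 5.20% and from 66.3% to 16.9%. By pooled calls the low class thus kept the smallest share of those named. Its arm bins had a median of 0 in ddm1 rdr2. In CHH arm bins kept 39.9% at 5% to 10% in WT, 29.9% at 10% to 15%, 30.4% at 20% to 30% and 14.2% above 40%.

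Kept shares moved when the class was set on + strand cytosines and the levels were read on - strand cytosines. In CG the arm classes at 40% to 50%, 60% to 70%, 80% to 90% and above 90% then kept 82.8%, 72.0%, 54.2% and 66.5%. In the pericentromere they kept 39.9%, 17.4%, 15.9% and 23.6%, so the 40% to 50% class was the one that moved most among these. In CHG the arm classes named kept 51.1%, 27.2% and 42.5% and those of the pericentromere 20.4%, 18.2% and 28.1%, where the low class no longer kept more than the top class. The CHH arm classes kept 34.5%, 29.6%, 32.3% and 18.2%.

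**Figure D3:**
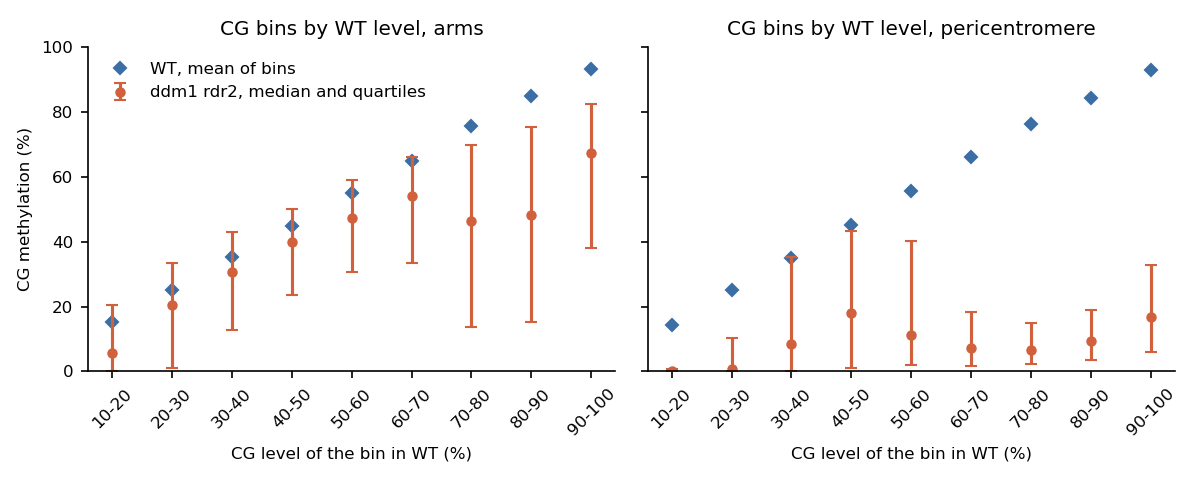
CG level of 100 bp bins in ddm1 rdr2 (orange, median with quartiles over bins) against the class of their WT level (%), in arms and pericentromere, with the WT mean of each class in blue. Arm bins at 80-90% in WT spread between quartiles of 15.1% and 75.3%, while pericentromeric bins of that class have a median of 9.37%.

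CG methylation was largely retained where WT was methylated in CG alone, and largely lost where WT was methylated in CHG as well. Bins with all 3 contexts measured numbered 346940. CG-only bins had at least 40% CG, under 5% CHG and under 2% CHH in WT, and their 58416 bins went from a median of 72.1% to 59.8%, with 81.5% of the mean retained. Bins with at least 40% CG and 20% CHG but under 10% CHH numbered 21869 and went from a median of 82.3% to 9.25%, with 18.4% of the mean retained. The 47689 bins methylated in all 3 contexts went from 83.0% to 9.46%, with 18.3% retained. CG-only bins are the pattern usual for gene bodies, and the other 2 patterns are usual for transposons; no annotation was used to check this.

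Among CG-only bins 60.1% were kept and 11.7% were called lower, while among bins methylated in all 3 contexts 2.41% were kept and 92.7% were called lower. The split held in both arms and pericentromere. CG-only bins in the pericentromere retained 76.6%, close to the 81.8% of the arms, and CG-only bins within 0.25 Mb of an array retained 73.6%. Bins methylated in all 3 contexts retained 14.4% in the pericentromere, 26.5% in the arms and 33.8% in the arms beyond 5 Mb.

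Among bins with non-CG methylation, retention still differed with distance. CG retention of bins methylated in CG and CHG was 13.3% within 0.25 Mb, 24.7% at 2 to 3 Mb, 38.0% at 5 to 8 Mb and 48.1% beyond 8 Mb. With CHH methylation as well it was 13.7%, 21.3%, 29.1% and 39.6%. CG-only bins ranged from 65.5% to 82.2% over all 8 classes. When the pattern was set by the ccr4a ccr4b library, which took no part in the comparison, the shares were 85.7% for CG-only bins, 15.9% for CG and CHG and 18.7% for all 3 contexts.

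**Figure D4:**
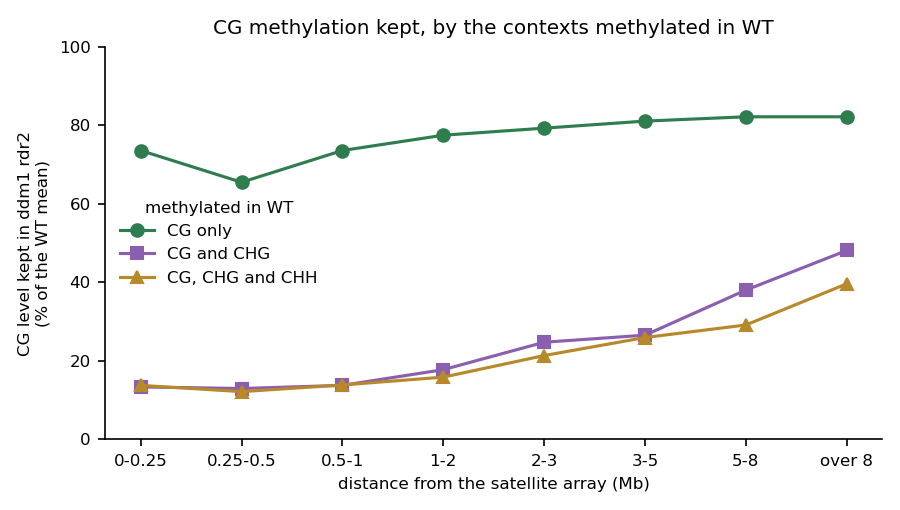
Mean CG level of 100 bp bins in ddm1 rdr2 as a percentage of their mean in WT, by distance from the satellite array (Mb), for bins methylated in WT in CG only, in CG and CHG, or in CG, CHG and CHH. CG-only bins lie between 65.5% and 82.2% throughout, and the other patterns climb from about the same low level near the array to 48.1% and 39.6% beyond 8 Mb.

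Most bins methylated in all 3 contexts in WT were lower in each of them. Of these 47689 bins, 64.2% were lower in all 3 and another 9556 were lower in CG and CHG without a CHH call. Taken singly, 92.7% were lower in CG, 87.5% in CHG and 70.9% in CHH. With shares this high many bins would be lower in all 3 even if the losses were unrelated. Whether they came together more often than that was not tested. Bins that lost CG but kept non-CG methylation were few: 690 (1.45%) were lower in CG and kept in CHG, and 1938 (4.06%) were lower in CG and kept in CHH. The reverse, kept in CG and lower in CHG, held for 371 bins (0.778%). It held for 317 (2.03%) of the 15623 bins of this pattern in the arms and 54 (0.176%) of the 30666 in the pericentromere. Methylation was kept in all 3 contexts in 183 bins (0.384%). Of the 4980 bins of this pattern in the arms beyond 5 Mb, 89 (1.79%) were so kept.

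Kept CHG bins had lost part of their CG methylation. With all 3 contexts measured, their median CG level was 84.2% in WT and 52.3% in ddm1 rdr2, beside medians of 46.5% and 49.1% in CHG and 12.4% and 11.6% in CHH. The kept CHG region with the most bins, chr3:1558901-1562300, lies 12.0 Mb from the array and holds the kept CHG stretch printed above. Its CHG level was 71.6% in WT and 75.5% in ddm1 rdr2, its CHH level 22.7% and 29.0%, and its CG level 86.9% and 65.4%. The quadruple mutant read 73.3% CHG and 66.9% CG there. At chr5:15935901-15937900, 1.72 Mb from the array, CG went from 81.2% to 24.1% while CHG went from 55.4% to 63.1%. The quadruple mutant was lower there, at 37.9% CHG and 11.7% CG. Of the 4850 kept CHG bins it covered, 54.6% also had at least 80% of the WT level in it, beside 77.4% of the 3404 covered in ccr4a ccr4b.

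The kept CHH region with the most bins, chr3:10486401-10492000, showed the same split between contexts. Its CHH level was 20.2% in WT and 26.2% in ddm1 rdr2, beside CHG levels of 59.0% and 51.2% and CG levels of 82.4% and 35.7%. The quadruple mutant read 22.7% CHH there, and 34.2% of the 12989 kept CHH bins it covered had at least 80% of the WT level in it. In ccr4a ccr4b, which carries neither ddm1 nor rdr2, the share was 40.1% of the 8996 it covered. Kept bins were picked by their WT and ddm1 rdr2 levels, and the share over all eligible bins was not taken. CHH in the kept stretch printed from this region went from 25.7% of 708 calls to 39.8% of 593. By contrast, the largest region of lower CHH by this count, chr4:8040601-8060100, spanned 185 called bins and went from 18.4% to 1.18% in CHH, from 48.4% to 4.04% in CHG and from 83.2% to 10.1% in CG. The largest region of lower CG, chr3:17284801-17302800, held 174 called bins and went from 83.7% to 13.2%. Both lower regions were deep, with 70.5 WT calls per CHH cytosine in that of lower CHH and 86.1 per CG cytosine in that of lower CG. Each lies above 3 times the median of 14 calls per covered cytosine.

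The kept CG region with the most bins was methylated in CG alone. At chr3:25524101-25527200, over 24 bins, CG was 73.5% in WT and 71.4% in ddm1 rdr2, while CHG was 0.0999% and 0.376%. The ccr4a ccr4b library read 72.8% CG and the quadruple mutant 69.7%. Of all kept CG bins with the 3 contexts measured, 93.8% were CG-only. The rule chose kept bins for close levels in WT and ddm1 rdr2, whose medians were 73.3% and 73.6%. The libraries it did not use had medians of 73.2% in ccr4a ccr4b, over the 29567 of these bins it covered, and 71.4% in the quadruple mutant, over 42046.

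Higher CG bins were short and lay mostly in the arms, as did most bins with little CG methylation in WT. Of the 3070 bins, 95.9% were in arms and 0 were in satellite arrays. The arms held 79.4% of the bins tested, but this counts bins too methylated in WT to rise by 40 points. Of the 237582 bins with 0 to 2% CG in WT, 231715 were in arms. Of the 6954 satellite bins tested, 6741 had at least 40% CG in WT, which left few with a low level. Whether higher bins favoured the arms among bins able to rise was not tested. After merging neighbours they formed 2923 regions, 2788 of them a single bin. Their median CG level was 0 in WT and 62.7% in ddm1 rdr2, and 63.2% of those with the 3 contexts measured were unmethylated in all 3 in WT. Few of these bins were also called higher in CHG (2.17%) or in CHH (0.434%), though more than the 0.154% and 0.148% of all bins with the 3 contexts measured.

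The region of most higher CG bins, chr5:23314101-23314700, had 0 methylated calls of 456 in WT, which allows up to 0.658%, and 47.4% of 445 calls in ddm1 rdr2. The ccr4a ccr4b library read 43.0% there and the quadruple mutant 49.3%, so WT was the lowest of the 4. At chr3:2986701-2987100 the levels were 17.0% in WT and 37.5% in ccr4a ccr4b, below the 68.1% of ddm1 rdr2 and the 63.9% of the quadruple mutant. At chr1:11455101-11455700 the highest was ccr4a ccr4b at 72.1%, beside 40.2% in WT, 64.1% in ddm1 rdr2 and 46.6% in the quadruple mutant. Over all higher CG bins the median was 28.3% in ccr4a ccr4b, over the 1648 bins it covered, and 46.7% in the quadruple mutant, over 3032 bins. The bins were picked for a low level in WT, so the levels of the other libraries beside it are a description.

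Higher CHG bins mostly lay where CG was already methylated in WT. In the 535 with all 3 contexts measured the median CG level was 73.1% in WT and 71.1% in ddm1 rdr2, with CHG medians of 7.50% and 48.8%. In the region with the most such bins, chr5:5200401-5202500, CHG was 0.349% in WT and 47.6% in ddm1 rdr2, while CG was 57.6% and 57.0%. CHG there was 1.33% in ccr4a ccr4b and 7.79% in the quadruple mutant, so the quadruple mutant lay nearer to WT than to ddm1 rdr2. At chr5:16618801-16620800 CHG was 48.8% in WT, 84.0% in ddm1 rdr2 and 13.2% in the quadruple mutant.

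At chr4:16561201-16562600 the libraries with ddm1 rdr2 were alike, with CHG at 58.2% in ddm1 rdr2 and 61.7% in the quadruple mutant, beside 3.65% in WT and 16.0% in ccr4a ccr4b. CG in that region was 36.4% in WT and 69.0% in ddm1 rdr2. Over all higher CHG bins the median CHG level was 7.74% in WT, 53.2% in ddm1 rdr2 and 31.0% in the quadruple mutant. Of these bins 28.8% were at least 1.5 times as deep in ddm1 rdr2 as in WT, against 10.3% of all CHG bins tested, and the part of depth in the result was not tested.

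Higher CHH bins lay mostly in the satellites. Satellite windows held 2834 of the 5419 (52.3%), although they held 3.90% of the CHH bins tested, and there the higher bins outnumbered the 1081 lower ones. Of the 5209 higher CHH bins that the quadruple mutant covered, in all regions, 22.0% were at least 10 points above WT in it. In ccr4a ccr4b this held for 8.27% of the 2576 it covered. The bins were picked for a WT level below that of ddm1 rdr2, and the share over all CHH bins was not taken. Median depth of higher CHH bins was 8.54 calls per cytosine in WT and 8.27 in ddm1 rdr2, against 14.0 and 13.6 over all CHH bins tested. In higher satellite bins CAA went from 12.9% to 42.1% and CTA from 10.1% to 40.9%, while CCC went from 0.646% to 1.26%. Other windows inside the array spans held 552 higher bins beside 1580 lower ones. These were 7.28% and 20.8% of the bins tested there, against 0.720% and 8.84% of all CHH bins. Outside the satellite windows the median of higher CHH bins was 6.67% in WT and 9.59% in the quadruple mutant, beside quartiles of 18.6% and 32.1% in ddm1 rdr2.

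Outside the satellites the 3 higher CHH regions with the most bins were already methylated in CG and CHG in WT. At chr3:4291801-4294400 CHH was 8.01% in WT and 31.5% in ddm1 rdr2, beside CHG levels of 65.3% and 72.3% and CG levels of 87.7% and 50.3%. CHH was 26.5% in the quadruple mutant. Depth in that region was 14.5 calls per CHH cytosine in WT and 29.8 in ddm1 rdr2. At chr5:10944601-10947100 CHH was 4.88% and 27.4%, with 25.5% in the quadruple mutant, and CHG was 55.2% and 75.5%. At chr1:12851901-12854500 CHH was 1.60% and 22.1%, with 8.33% in the quadruple mutant, and CHG was 23.0% and 71.4%, with 23.4 and 48.1 calls per CHH cytosine. In all 3 regions CHG was higher in ddm1 rdr2 as well, and depth was 1.5 times that of WT or more.

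**Figure D5:**
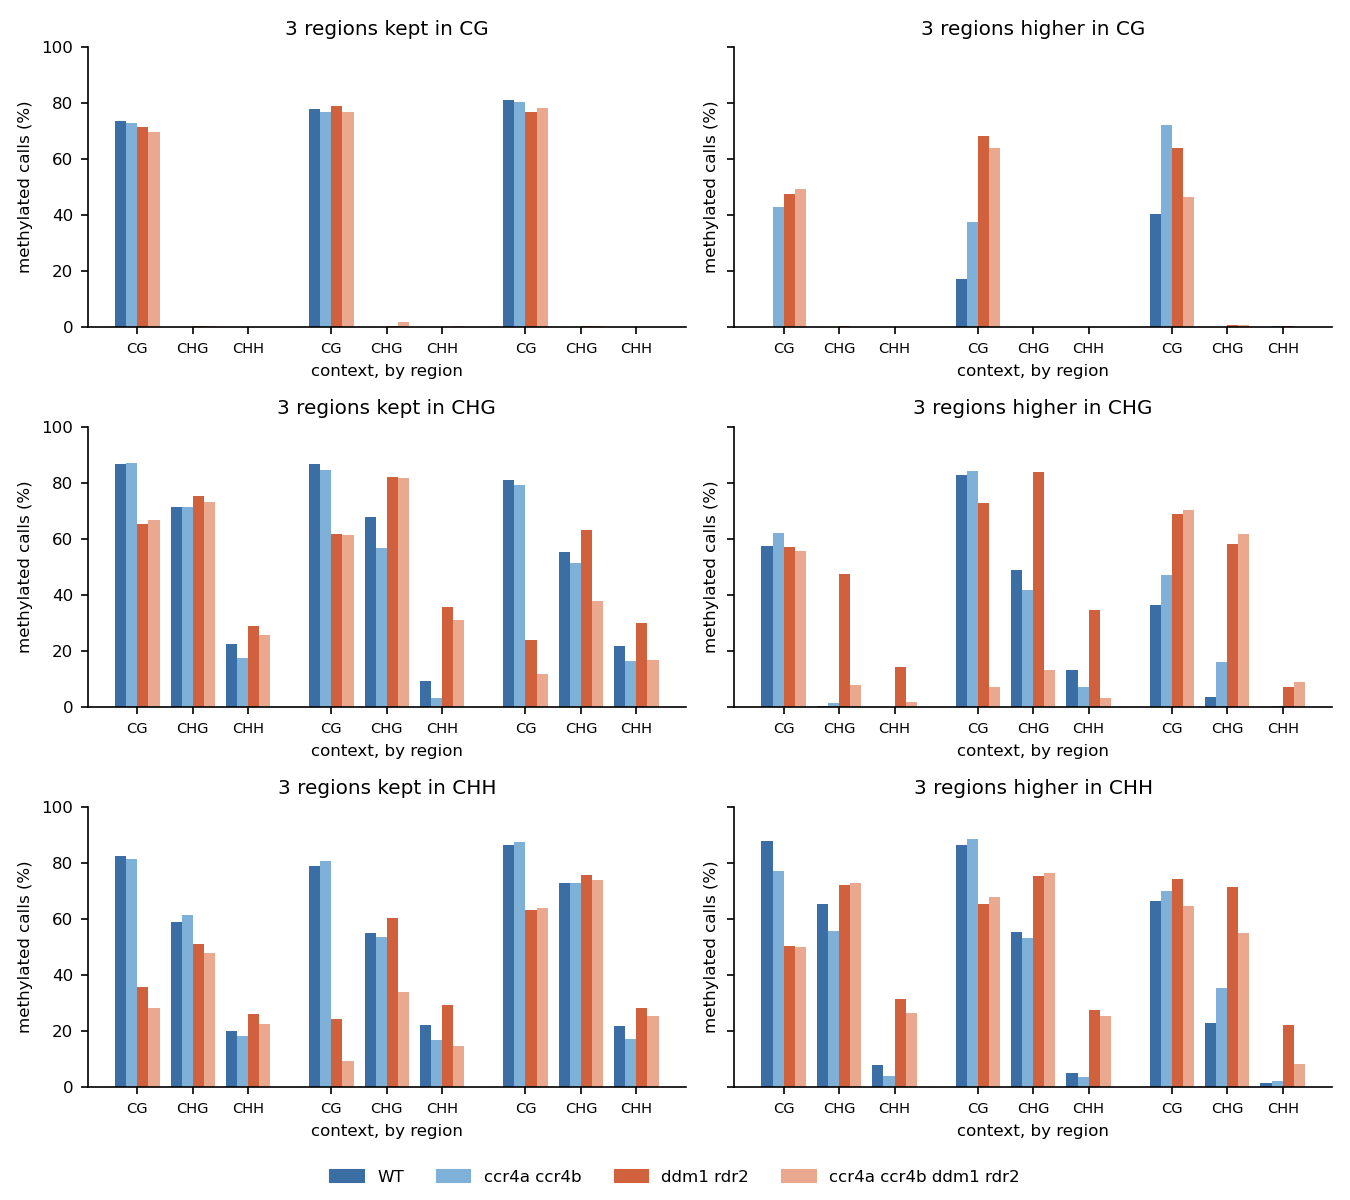
Methylated share of calls (%) in CG, CHG and CHH in the 3 kept and the 3 higher regions with the most bins, for each context, outside the satellites, in WT, ccr4a ccr4b, ddm1 rdr2 and the quadruple mutant. Kept and higher CHG and CHH regions hold high CHG and CHH in ddm1 rdr2 beside reduced CG in most of them, and regions kept or higher in CG have almost no CHG or CHH.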

How the data were processed

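The deposited files hold counts, 1 line per cytosine and strand, with methylated calls, unmethylated calls, context and trinucleotide. The counts came from Bismark 0.22.3, per the submitters' processing notes. File names point to trimmed paired-end reads, Bowtie 2 and a ColCEN reference, with no other source for these, and the handling of duplicates and of reads that map to several places is not given in the sources used here. No covered cytosine had fewer than 3 calls, so a floor lies below the minimum of 4 used here.

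Levels are methylated shares of pooled calls with Wilson and Newcombe 95% intervals. Bins of 100 bp needed at least 4 cytosines of the context. Called or kept bins at most 100 bp apart were merged, and per context and kind the 3 regions outside satellite windows with the most bins were named; the larger difference settled ties, or the higher ddm1 rdr2 level for kept bins. Python 3.11.15, numpy 2.4.6, scipy 1.17.1, pandas 2.3.3 and numba 0.67.0 were used. The calling of bins was tested on simulated calls at the depths of the real bins, with 200 bins changed per context. It called 99.0% of those changed by 60 points in CG, 73.0% at 30 points in CHG and 68.0% at 15 points in CHH. No unchanged bin was called, but calls were drawn independently, so several calls from 1 molecule were not simulated. Members, patterns and classes were chosen with earlier results of these data known. Gene lists and a comparison of promoters had been planned and are not analysed here, since the build used by the files comes with no gene positions here. The alternatives tried are named with their values in the closing section.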

Additional observations from a re-analysis of the deposited data

How the results depend on the processing

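No paired analysis was possible because each genotype had 1 library, and for the same reason no library could be left out. Nuclear differences (CG, CHG and CHH in this order) were -25.3, -12.1 and -3.77 points with at least 1 call, -25.7, -12.5 and -3.95 with at least 10 calls, -17.9, -7.03 and -2.05 as the mean of single cytosines, and -15.8, -6.60 and -2.24 without highly covered cytosines, meaning over 3 times the median. The retained share in the arms (CG, CHG, CHH) was 49.6%, 23.7% and 24.5% with at least 10 calls, 64.8%, 38.1% and 36.2% as the mean of cytosines, 68.0%, 32.4% and 29.1% without highly covered cytosines, 39.98%, 20.04% and 21.2% with a pericentromere of 1 Mb, and 56.3%, 25.2% and 24.3% without the deep stretches. In the pericentromere, under the same 5 settings, it was 14.2%, 16.9% and 22.9%, then 17.7%, 21.7% and 30.3%, then 21.6%, 24.4% and 33.9%, then 12.5%, 16.3% and 25.3%, and then 15.2%, 18.0% and 24.5%. The order of arms over pericentromere in CG held under each of these. Lower bins numbered 60710 in CG, 36606 in CHG and 43186 in CHH without highly covered cytosines. With bins of 200 bp there were 1297 higher CG, 534 higher CHG, 36470 lower CHH, 3084 higher CHH and 7779 kept CHH bins. With at least 10 calls there were 1997 higher CG, 1975 higher CHH, 3274 kept CHG and 7364 kept CHH bins. With the minimum difference lowered to 20, 10 and 5 points there were 9620 higher CG, 1553 higher CHG, 107529 lower CHH and 8222 higher CHH bins, and with the usual minimum difference alone, without a test, 8749 higher CHH bins. The satellite CHH difference lay between 1.47 and 2.37 points under 7 alternatives chosen after seeing the data, as were the deep stretches. It was -0.0666 points when recurrence ignored the trinucleotide and all 4 libraries also had to cover a cytosine, and 1.47 points under either change alone. The cause of these shifts was not tested. The planned promoter comparison was not run.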

Other observations

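A minority of CG-only bins lost CG methylation in ddm1 rdr2. The 6856 CG-only bins called lower had a median CG level of 16.5% in ddm1 rdr2 and 28.4% in the quadruple mutant, beside quartiles of 57.5% and 85.0% in WT. The ccr4a ccr4b library, which carries neither mutation, read 60.7% over the 4399 bins it covered. Over all CG-only bins its median was 68.8%, beside 72.1% in WT, 59.8% in ddm1 rdr2 and 61.6% in the quadruple mutant.

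The windows inside the array spans that were no satellite windows lost CG nearly as fully as the satellites, from 79.6% to 7.05%, and kept 47.9% of their CHH level. That share was 84.5% on chromosome 2 and 21.0% on chromosome 4.

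Coverage differed between the libraries in called bins. Of the lower CHG bins 43.3%, and of the lower CHH bins 49.1%, were at least 1.5 times as deep in WT as in ddm1 rdr2, against 13.4% and 16.0% of all bins tested. The part of depth in these calls was not tested. The thin coverage of the satellites, the unstated handling of repeated sequence and the single library per genotype limit what the levels there can show.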
